A study of Mus musculus with 8 samples.

Results

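Knockdown of Ring1a without the EZH1/2 inhibitor was followed in poly(A) RNA of immortalized mouse embryonic fibroblasts that already carried knockouts of 6 labelled targets. Ring1a is the older name of the gene Ring1. The comparison took 4 of the 8 libraries of the series: 2 libraries from cells with an shRNA against Ring1a, and 2 libraries from cells with a control shRNA. They were chosen by their column names, which begin with 20 or 28, and the libraries that share a prefix are called set 20 and set 28 here. Each set held 1 library of each shRNA, so each set gave 1 difference, and the set was kept as a block in the tests. All 4 groups of the series shared the same background, a line named 6KO in the labels and given there as knocked out for Setdb1, Suv39h1/2, Ehmt1, Ehmt2 and Ring1b. The shRNAs came in by lentivirus at a multiplicity of infection of 2, followed by selection in blasticidin at 7 µg/ml for 3 days. The other 4 libraries carried the same pair of shRNAs in cells grown with the EZH1/2 inhibitor DS3201 at 1 µM for 7 days. They entered the fits over all 8 libraries, and so the standard errors and adjusted p-values from them. Their values are also set beside those without inhibitor.

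Polycomb repressive complex 1 (PRC1) is a ubiquitin ligase that places a single ubiquitin on histone H2A, the mark H2AK119ub. Its catalytic subunit is either RING1B, encoded by Rnf2, or RING1A, encoded by Ring1, so cells without RING1B depend on RING1A for what PRC1 activity remains. PRC1 and the H3K27 methyltransferase complex PRC2 keep developmental genes silent in fibroblasts and other differentiated cells, mostly at promoters rich in CpG. The Setdb1, Suv39h and Ehmt products methylate H3K9, the mark of heterochromatin and of silenced retroviral repeats. The title of the series asks how H3K27me3 and the PRC1 mark maintain silencing once H3K9 methylation is lost, and the knockdown without inhibitor is the arm in which Ring1a was targeted and EZH1/2 was not inhibited.

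The labels name 1 shRNA against Ring1a and no other hairpin, so an effect of losing RING1A and an effect of this hairpin on other transcripts cannot be told apart here. Whether the libraries came from separate cultures or clones is not stated either, so each p-value reflects how far these particular libraries vary, and that variation may be technical. The Ring1a shRNA libraries held 23688253 counts in set 20 and 14782753 in set 28, and the control libraries held 20554685 and 15345960. Of the 16 fibroblast markers listed, 1 (Lum) was at 0 in all 4 libraries and 3 (Lum, Thy1 and Dcn) were under 1 CPM in each. CPM are counts scaled to a common library size, here after TMM, a correction for library composition. The numbers of markers under 1 CPM in this paragraph were taken without TMM. The collagen gene Col1a1 stood at 6954 and 6013 CPM with the Ring1a shRNA and at 6153 and 5547 CPM with the control. The 2 values of a group are given in the order set 20, set 28. Many markers of other cell types were under 1 CPM in all 4 libraries. They were 18 of 24 neuronal, 21 of 26 muscle, 10 of 17 endothelial, 11 of 19 epithelial, and 9 of 19 adipocyte and chondrocyte markers. The rest reached 1 CPM in at least 1 library. Summed without TMM, endothelial markers gave 432 and 228 CPM with the Ring1a shRNA and 386 and 273 CPM with the control. Adipocyte and chondrocyte markers gave 722 and 691 CPM with the Ring1a shRNA and 706 and 657 CPM with the control.

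Promoters of the target and of some genes named in the results are shown because Polycomb complexes are known for binding CpG-rich promoters. Each run is the 250 bases before the outermost annotated start of the gene, from RefSeq on GRCm38.p6 (the assembly of mm10), 5′ to 3′ on the strand of the gene, with every CG in capitals.
Ring1, chr17:34024681-34024930, minus strand: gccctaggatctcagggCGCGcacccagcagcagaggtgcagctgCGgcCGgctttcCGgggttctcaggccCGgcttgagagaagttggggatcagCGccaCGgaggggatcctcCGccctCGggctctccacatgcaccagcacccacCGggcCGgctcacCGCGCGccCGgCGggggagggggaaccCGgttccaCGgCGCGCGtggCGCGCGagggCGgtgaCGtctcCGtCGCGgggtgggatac
Stc2, chr11:31370062-31370311, minus strand: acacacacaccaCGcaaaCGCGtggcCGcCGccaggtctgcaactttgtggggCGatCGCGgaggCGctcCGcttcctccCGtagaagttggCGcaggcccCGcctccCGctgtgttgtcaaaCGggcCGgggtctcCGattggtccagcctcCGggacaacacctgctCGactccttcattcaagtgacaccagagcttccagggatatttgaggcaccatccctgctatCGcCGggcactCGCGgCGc
Mmp10, chr9:7502092-7502341, plus strand: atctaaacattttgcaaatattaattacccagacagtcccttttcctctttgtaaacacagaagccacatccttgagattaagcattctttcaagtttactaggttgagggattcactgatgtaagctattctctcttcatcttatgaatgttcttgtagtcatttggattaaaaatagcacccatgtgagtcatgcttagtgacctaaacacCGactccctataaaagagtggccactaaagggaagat
Mbnl3, chrX:51205991-51206240, minus strand: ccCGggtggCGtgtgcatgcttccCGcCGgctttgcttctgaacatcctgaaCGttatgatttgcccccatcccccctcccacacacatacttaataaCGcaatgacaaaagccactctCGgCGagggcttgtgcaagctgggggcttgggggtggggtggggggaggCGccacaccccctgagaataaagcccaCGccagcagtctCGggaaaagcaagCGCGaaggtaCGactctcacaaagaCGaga
Bckdk, chr7:127903823-127904072, plus strand: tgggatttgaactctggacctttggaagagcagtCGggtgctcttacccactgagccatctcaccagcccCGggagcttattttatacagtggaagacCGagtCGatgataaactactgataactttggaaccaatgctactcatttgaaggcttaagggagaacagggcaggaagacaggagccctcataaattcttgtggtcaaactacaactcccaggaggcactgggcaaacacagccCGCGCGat
The Ring1 window holds 30 CG and that of Stc2, a gene higher with the Ring1a shRNA, holds 24. The window of Mmp10, also higher, holds 1. Those of Stard10, Cx3cl1 and Spsb1, higher as well, hold 3, 14 and 20, and those of Bai2 and Tcf7, not at the outermost start, 35 and 37. The median was 6 CG over 27025 RefSeq promoters of the same length, taken at the first listed start of each gene. These few windows were picked, so they give no share for the genes that were higher. Among genes that were lower, the Mbnl3 window holds 15 CG, the Bckdk window 7, and those of Sprr2h and Itih2 1 each. Windows of lower genes not at the outermost start hold 39 for Dnajc13, 34 for Fam63b, 19 for Fosb, and 17 each for Itgb1bp1 and Xpo6. Across all promoters 27.52% hold 15 or more.

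Ring1, at chr17:34020792-34024680, was lower with its shRNA in both sets. It stood at 4.51 and 1.41 CPM (111 and 21 counts) with the Ring1a shRNA and at 20.2 and 9.73 CPM (426 and 145 counts) with the control. The groups did not overlap, and the log2 difference was -2.14 in set 20 and -2.69 in set 28. The fitted log2 fold change was -2.42 ± 0.29 (SE, 2 libraries in each group, from the fit over all 8 libraries). Its adjusted p over the 15287 entries was 0.705 by edgeR's quasi-likelihood test with Benjamini-Hochberg adjustment. DESeq2 on the same 8 libraries called it, with a log2 fold change of -2.42 and an adjusted p = 8.34e-07. Ring1 reads remained in each knockdown library, at a fitted ratio of 0.187 to the control.

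The paralogue Rnf2 (Ring1b), which is labelled as knocked out, gave 28.7 and 45.0 CPM with the Ring1a shRNA and 28.9 and 50.5 CPM with the control. No source used here gives the edited positions, so counts over Rnf2 or over the labelled H3K9 genes check no label. The PRC2 enzyme gene Ezh2 stood at 60.5 and 90.4 CPM with the Ring1a shRNA and at 59.6 and 89.9 CPM with the control, a fitted log2 fold change of 0.01 ± 0.18. Setdb1 reads were at 13.1 and 9.36 CPM with the Ring1a shRNA and at 9.46 and 5.91 CPM with the control, higher in both sets (0.57 ± 0.24) and not past the adjusted threshold in edgeR or DESeq2 on 8 libraries.

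**Figure D1:**
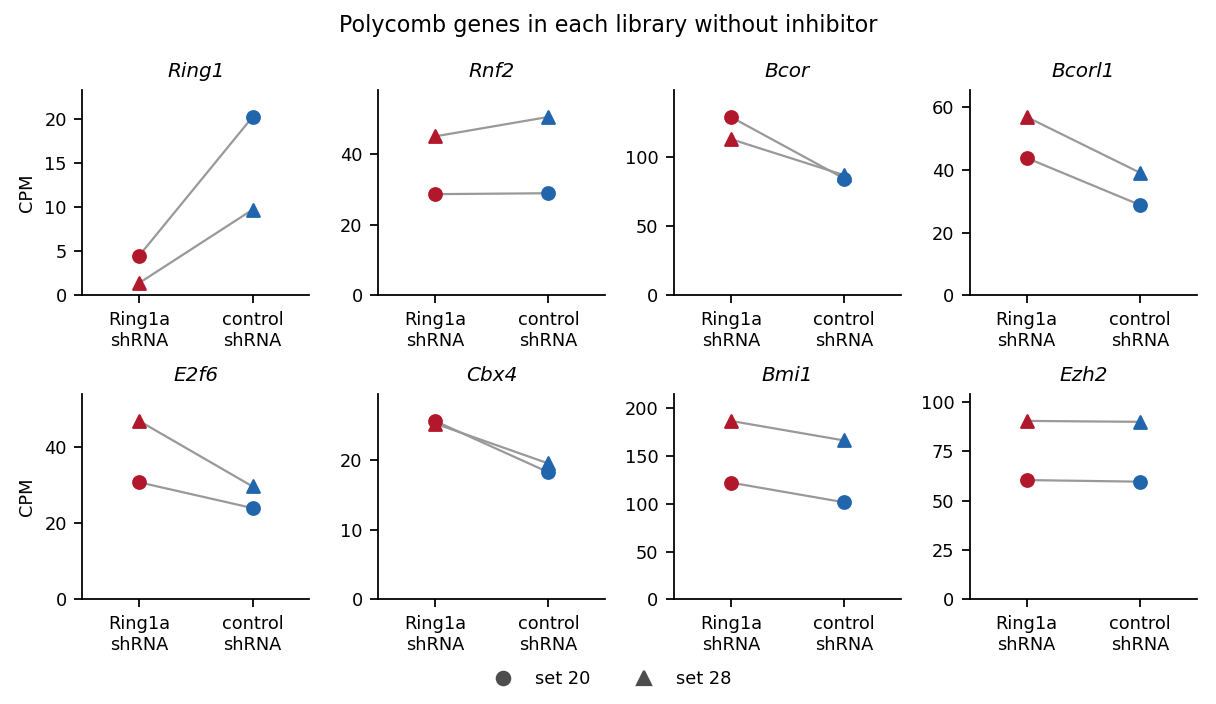
CPM (y axis, linear, from 0) of 8 Polycomb genes in the Ring1a shRNA library (red, left) and the control shRNA library (blue, right) of set 20 (circles) and set 28 (triangles), with a line joining the libraries of a set. Ring1 lies between 1.41 and 4.51 CPM with its shRNA and between 9.73 and 20.2 CPM with the control, Ezh2 is level, and Bcor and Bcorl1 are higher with the Ring1a shRNA in both sets.

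Across the transcriptome the test over all 8 libraries, which shares 1 estimate of the spread among the 4 groups, called 0 of 14393 genes higher (0.0%) and 0 lower (0.0%), and 0 of 894 repeat subfamilies either way (0.0% each). At an unadjusted p under 0.05 it gave 382 genes higher (2.654% of those tested) and 182 lower (1.265%). By the same limit, 12 repeat subfamilies were higher (1.342%) and 0 lower (0.0%). DESeq2 on the same libraries called 16 of 11182 genes higher (0.143%) and 15 lower (0.134%), and on the 4 libraries without inhibitor 124 of 11844 higher (1.05%) and 187 lower (1.58%). The edgeR fit on those 4 libraries called 1347 of 13053 genes higher (10.3%) and 1224 lower (9.38%). That last fit had 1 residual degree of freedom and took genes of similar level to have the same spread, so a gene's own spread between libraries has little weight in its calls. The median control level was 65.64 CPM for genes it called lower and 23.43 CPM for those called higher, against 21.8 CPM for all 14393 genes. The shares of all genes set beside gene lists below are not matched for level.

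A rule with no test was therefore set beside the calls: a gene had to differ by 1.5-fold or more in the same direction in both sets, with a mean of at least 1 CPM in the higher group. By it 334 of 14393 genes were higher with the Ring1a shRNA (2.32%) and 88 were lower (0.611%), while 14 and 15 genes passed 1.5-fold in opposite directions in the sets. Of the 334 higher genes, 90 passed 2-fold in both sets and 124 averaged under 1 CPM in the control (37.13%, against 15.74% of all genes tested). For a higher gene the rule sets no minimum in the control, so genes with few counts there are not kept out. Of the 88 lower genes, 10 passed 2-fold in both sets. Since the rule asks for 1 CPM in the higher group alone, a lower gene could not be under 1 CPM in the control. The edgeR fit on 4 libraries called 287 of the 334 and 80 of the 88, which is no independent support since it used the same libraries. Where groups are said to overlap or not, this only describes 2 libraries a group. The share of all genes without overlap was not taken, so a lack of overlap gives no support for a gene.

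**Figure D2:**
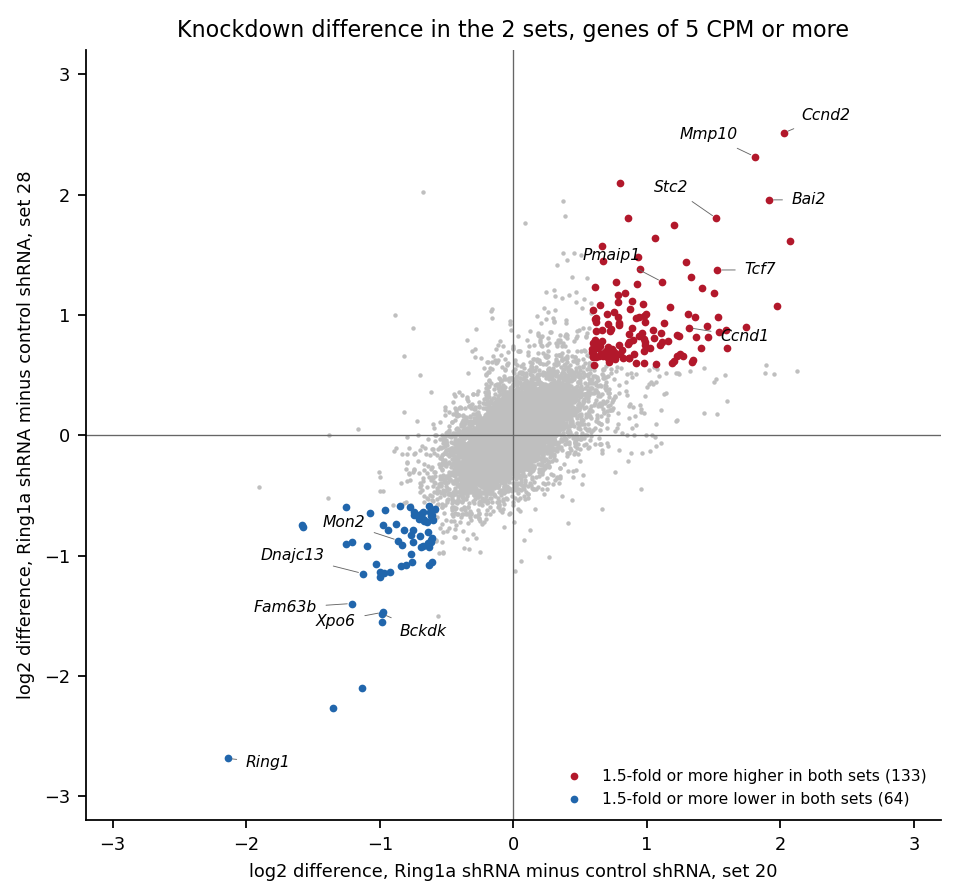
Log2 difference, Ring1a shRNA minus control shRNA, in set 20 (x axis) and set 28 (y axis) for the 10508 genes with at least 5 CPM in the higher group. Red points are the 133 genes at least 1.5-fold higher in both sets and blue points the 64 at least 1.5-fold lower in both, with Ring1 lowest on both axes.

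Over the 10615 genes that averaged 5 CPM or more in the 8 libraries, the differences of set 20 and set 28 correlated with Pearson's r = 0.63 across genes, and over all genes tested with r = 0.42. This is a description across genes, which are not independent, and the sets differ in depth and in many gene levels. The median log2 difference over all genes was 0.00 in each set, which TMM scaling fixes near 0.

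Of the 12 genes ranked highest, Ccnd2 and Tcf7 are described here beside related genes picked after their values were seen. Ccnd2, which encodes cyclin D2, a partner of CDK4 and CDK6 in G1, stood at 1.91 and 18.2 CPM with the Ring1a shRNA and at 0.380 and 3.09 CPM with the control. It was higher within each set (log2 differences 2.03 and 2.51), while the groups overlapped because set 28 ran higher than set 20 for both shRNAs. The fitted log2 fold change was 2.39 ± 0.50, with an adjusted p = 0.915 by edgeR's quasi-likelihood test and 0.000712 by DESeq2. The fitted value was 1.45 without the Ring1a shRNA library of set 28 and 3.09 without the control library of set 28. Ccnd1 (cyclin D1) was at 99.5 and 134.5 CPM with the Ring1a shRNA and at 40.0 and 72.3 CPM with the control, with no overlap.

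Tcf7, which encodes the Wnt-responsive transcription factor TCF1, at chr11:52246527-52283383, had 26.8 and 18.4 CPM with the Ring1a shRNA, against 9.22 and 7.05 CPM with the control. Both knockdown libraries lay above both control libraries. The log2 differences were 1.53 and 1.37, and the fit gave 1.46 ± 0.22 with an adjusted p = 0.705 by edgeR's quasi-likelihood test and 0.000193 by DESeq2. Axin2, a feedback inhibitor of the pathway that is widely read as its target, had 2.07 and 1.01 CPM with the Ring1a shRNA and 0.285 and 0.134 CPM with the control (DESeq2 adjusted p = 0.0415). The sister factor Lef1 had 2.76 and 6.53 CPM with the Ring1a shRNA and 0.618 and 2.48 CPM with the control.

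A list of 15 usual readouts of Wnt signalling was put together after these values were seen and gets no test. Of its 13 members tested, 7 were at least 1.5-fold higher in both sets, namely Axin2, Ccnd1, Ccnd2, Lef1, Notum, Sp5 and Tcf7. Of all genes 2.32% were, but the members were chosen with these values known, so the 2 shares cannot be weighed against each other. Notum, a secreted Wnt inactivator, had 1.34 and 0.942 CPM with the Ring1a shRNA and 0.523 and 0.201 CPM with the control, and the transcription factor gene Sp5 had 1.87 and 1.62 CPM with the Ring1a shRNA against 0.665 and 0.604 CPM with the control. Not all members differed: Myc was at 96.2 and 45.7 CPM with the Ring1a shRNA and at 75.5 and 55.4 CPM with the control, with opposite signs in the sets. The feedback ligase gene Znrf3 stood at 25.9 and 27.1 CPM with the Ring1a shRNA and at 24.5 and 21.2 CPM with the control, and Nkd1 had no counts in any of the 4 libraries.

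A list of signalling ligands, receptors and antagonists shares Axin2 and Lef1 with the readouts above. Among its 61 members tested, 9 were at least 1.5-fold higher in both sets (14.75%, against 2.32% of all genes) and 0 lower, and the edgeR fit on 4 libraries called 19 of 50 higher (38.0%, against 10.3% of all genes) and 1 lower (2.0%, against 9.38%). The 9 were Axin2, Lef1, Fst, Pdgfb, Pdgfra, Wnt11, Wnt4, Wnt5b and Wnt7a. The median log2 difference was 0.28 in set 20 and 0.18 in set 28, against 0.00 for all genes. Wnt4, a secreted Wnt ligand, had 19.17 and 9.56 CPM with the Ring1a shRNA, against 11.0 and 2.15 CPM with the control. Wnt11 had 1.95 and 2.09 CPM with the Ring1a shRNA and 0.190 and 0.403 CPM with the control, and these groups did not overlap. Outside the Wnt family, the receptor gene Pdgfra had 0.975 and 7.27 CPM with the Ring1a shRNA and 0.190 and 1.95 CPM with the control, and its ligand gene Pdgfb had 16.1 and 11.0 CPM with the Ring1a shRNA against 7.41 and 6.04 CPM with the control.

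The remaining genes ranked highest were of mixed function, and none passed the adjusted threshold in edgeR's test over 8 libraries. Bai2 (Adgrb2 in RefSeq), an adhesion G protein-coupled receptor gene, had 12.5 and 6.33 CPM with the Ring1a shRNA and 3.23 and 1.54 CPM with the control, a fitted log2 fold change of 1.99 ± 0.34 (DESeq2 adjusted p = 0.00173). Stc2, whose product is a secreted glycoprotein and whose CpG-rich promoter is printed above, had 9.34 and 4.51 CPM with the Ring1a shRNA and 3.18 and 1.21 CPM with the control (1.70 ± 0.27). Neither gene had overlapping groups. Nos2, the inducible nitric oxide synthase gene, had 68.2 and 0.471 CPM with the Ring1a shRNA and 25.6 and 0.134 CPM with the control. Its level differed between the sets by far more than between the shRNAs, and in set 28 it rested on 7 and 2 counts. Cx3cl1, encoding the membrane-bound chemokine fractalkine, had 49.9 and 12.5 CPM with the Ring1a shRNA and 21.6 and 3.62 CPM with the control. The matrix metalloproteinase gene Mmp10 had 1.63 and 8.48 CPM with the Ring1a shRNA and 0.380 and 1.61 CPM with the control.

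Leaving out single libraries moved the fitted log2 fold changes of Mmp10 and Fam84b most, to 0.62 and 0.51 without the Ring1a shRNA library of set 28 and to 3.60 and 3.39 without the control library of set 28. Fam84b (Lratd2 in RefSeq) had 5.97 and 34.9 CPM with the Ring1a shRNA and 1.33 and 11.3 CPM with the control. Stard10, Gdpd5 and Spsb1 were the other members, with fitted log2 fold changes of 1.35 ± 0.35, 1.40 ± 0.42 and 1.42 ± 0.33.

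Genes silent or nearly silent in the control are of interest because Polycomb is known to keep such genes off. Ogfrl1 had 16 and 17 counts with the Ring1a shRNA and 0 and 0 with the control, where 3 counts, the limit that a count of 0 allows, correspond to 0.146 and 0.195 CPM. DESeq2 called it on 8 libraries (adjusted p = 0.0139). Tchh, which encodes the hair-follicle protein trichohyalin, had 0.691 and 3.30 CPM with the Ring1a shRNA and 0 and 0.336 CPM with the control. Mmp17, a membrane-type metalloproteinase gene, had 3.82 and 1.08 CPM with the Ring1a shRNA and 0.665 and 0.134 CPM with the control. These levels stayed low in absolute terms. The genes were named for their DESeq2 calls after their values were seen, as were the others DESeq2 called higher: Add3, Man1c1, Serpina3g (which has near-identical neighbours, so its counts are uncertain), Camk2n1, Rgs3, Myl9 and Prickle1.

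Developmental regulators, the classical Polycomb targets, differed in a minority. Of 132 developmental transcription factor genes listed, 43 had no counts in any of the 4 libraries and 75 could be tested. Of these, 6 were at least 1.5-fold higher in both sets (8.0%, against 2.32% of all genes) and 0 lower, and the edgeR fit on 4 libraries called 15 of 57 higher (26.32%, against 10.3%) and 0 lower. Foxd1, a forkhead factor of mesenchyme, had 3.70 and 10.7 CPM with the Ring1a shRNA and 0.855 and 5.03 CPM with the control. Eomes, a T-box factor of mesoderm and endoderm, had 5.65 and 2.96 CPM with the Ring1a shRNA, against 2.38 and 1.28 CPM with the control, with no overlap. Sox9, a regulator of cartilage, had 5.52 and 1.89 CPM with the Ring1a shRNA and 1.62 and 0.873 CPM with the control. The other members past 1.5-fold were Gata2, Lhx6 and Dlx5. The median log2 difference of the tested list was 0.14 in set 20 and 0.11 in set 28.

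Of the 27 Hox genes tested, 1 (Hoxa3, at 0.203 and 2.36 CPM with the Ring1a shRNA and 0.0950 and 1.07 CPM with the control) passed 1.5-fold in both sets. The edgeR fit on 4 libraries called 1 of 25 higher, Hoxa10 (4.0%, against 10.3% of all genes). Their median log2 difference was 0.45 in set 20 and 0.08 in set 28. Clustered protocadherins gave 0 calls of 18, and germline genes 0 higher and 2 lower of 10. Among genes of the 2-cell embryo 1 of 8 was called higher and 1 lower (12.5% each). Imprinted genes gave 4 higher and 3 lower of 29 by that fit, 13.79% and 10.34% against 10.3% and 9.38% of all genes. Phlda2, an imprinted gene that restrains placental growth, had 1.79 and 4.11 CPM with the Ring1a shRNA and 0.523 and 0.805 CPM with the control, and Dnmt3b, a DNA methyltransferase gene, had 5.69 and 4.17 CPM with the Ring1a shRNA against 2.66 and 2.01 CPM with the control.

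Some subunits of PRC1 other than Ring1, which the list leaves out, were higher. Of 25 PRC1 genes in the edgeR fit on 4 libraries, 9 were called higher (36.0%, against 10.3% of all genes) and 1 lower (Dcaf7, 4.0%, against 9.38%). The tests over 8 libraries called 0 by edgeR or DESeq2, and 0 of 26 passed 1.5-fold in both sets. Bcor, a scaffold of the variant complex PRC1.1, had 129.1 and 113.1 CPM with the Ring1a shRNA and 84.5 and 87.0 CPM with the control, without overlap (fitted log2 fold change 0.49 ± 0.17). Its relative Bcorl1 had 43.7 and 56.7 CPM with the Ring1a shRNA and 28.7 and 39.0 CPM with the control. DESeq2 on 4 libraries called both (adjusted p = 0.00566 and 0.0243), and on 8 libraries neither. PRC2 genes gave 2 higher (Jarid2 and Lcor) and 0 lower of 10, and among genes that remove or read H2A ubiquitin 0 of 11 were called higher and 2 lower (Asxl1 and Foxk2). Asxl1, a cofactor of the H2A deubiquitinase BAP1, had 99.4 and 123.8 CPM with the Ring1a shRNA and 122.2 and 168.8 CPM with the control.

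Several genes that p53 activates were higher. Pmaip1, which encodes the pro-apoptotic protein NOXA, had 21.8 and 66.8 CPM with the Ring1a shRNA, against 9.98 and 27.6 CPM with the control. It was higher by a log2 difference of 1.12 in set 20 and 1.27 in set 28, with a fitted 1.20 ± 0.19 and a DESeq2 adjusted p = 0.000368. Fas, a death receptor gene, had 30.02 and 12.4 CPM with the Ring1a shRNA and 15.8 and 6.24 CPM with the control. Btg2, an antiproliferative gene, had 25.1 and 14.5 CPM with the Ring1a shRNA and 14.7 and 5.91 CPM with the control. Of the 22 p53 targets tested, 4 were at least 1.5-fold higher in both sets (18.18%, against 2.32% of all genes) and 0 lower, and the edgeR fit on 4 libraries called 9 of 20 higher (45.0%, against 10.3%) and 0 lower. Their median log2 difference was 0.17 in set 20 and 0.19 in set 28.

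The edgeR fit on 4 libraries called 2 of 7 CDK inhibitors higher (28.57%, against 10.3% of all genes) and 2 lower (28.57%, against 9.38%). With 7 members these shares say little about the family. Cdkn1a (p21) had 92.1 and 63.1 CPM with the Ring1a shRNA and 61.4 and 31.1 CPM with the control, and Cdkn1c (p57), an imprinted growth inhibitor, had 271.3 and 252.1 CPM with the Ring1a shRNA against 159.0 and 174.2 CPM with the control. DESeq2 on 4 libraries called both higher (adjusted p = 0.00014 and 2.02e-07). Cdkn2a, the Ink4a/Arf gene that Polycomb is known to repress, stood at 318.7 and 154.7 CPM with the Ring1a shRNA and at 338.2 and 167.2 CPM with the control, a fitted log2 fold change of -0.10. Of 48 genes of DNA replication and mitosis in the edgeR fit on 4 libraries, 7 were called higher (14.58%, against 10.3% of all genes) and 14 lower (29.17%, against 9.38%). The higher ones were Ccnd1, Ccnd2, Ccnd3, Ccne2, Cdk6, E2f7 and Mcm10. The lower ones held mitotic genes (Ccna2, Ccnb2, Cdc20, Cenpe, Cenpf, Foxm1, Mki67, Plk1) and genes of the G1 to S transition and replication (Ccne1, Cdk2, E2f1, Mcm5, Mcm6, Tyms). Cenpf, a kinetochore gene, had 115.8 and 172.8 CPM with the Ring1a shRNA and 154.5 and 222.2 CPM with the control.

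Of 29 secreted inflammatory and senescence genes in the edgeR fit on 4 libraries, 17 were called higher (58.62%, against 10.3% of all genes) and 0 lower, and 5 of 36 tested passed 1.5-fold in both sets (13.89%, against 2.32%). Lif, a cytokine of the interleukin-6 family, had 15.8 and 11.2 CPM with the Ring1a shRNA and 8.17 and 5.64 CPM with the control, with no overlap. Tnfaip3, a negative regulator of NF-kappaB, had 76.4 and 63.1 CPM with the Ring1a shRNA and 42.4 and 44.2 CPM with the control (DESeq2 on 4 libraries, adjusted p = 0.00135). Igfbp4, which binds insulin-like growth factors, had 108.5 and 65.6 CPM with the Ring1a shRNA and 68.8 and 41.1 CPM with the control. The median log2 difference was 0.42 in set 20 and 0.22 in set 28.

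Interferon-stimulated genes differed between the sets. Their median log2 difference was -0.04 in set 20 and 0.35 in set 28. The edgeR fit on 4 libraries nevertheless called 21 of 51 higher (41.18%, against 10.3% of all genes) and 2 lower (3.922%, against 9.38%). Cxcl10, an interferon-induced chemokine gene, had 166.9 and 88.5 CPM with the Ring1a shRNA and 153.3 and 48.5 CPM with the control, so nearly all of its difference lay in set 28. Mx1, Psmb8 and Psmb9 passed 1.5-fold in both sets. Psmb8, an immunoproteasome subunit gene, had 28.03 and 28.9 CPM with the Ring1a shRNA against 15.4 and 17.1 CPM with the control.

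**Figure D3:**
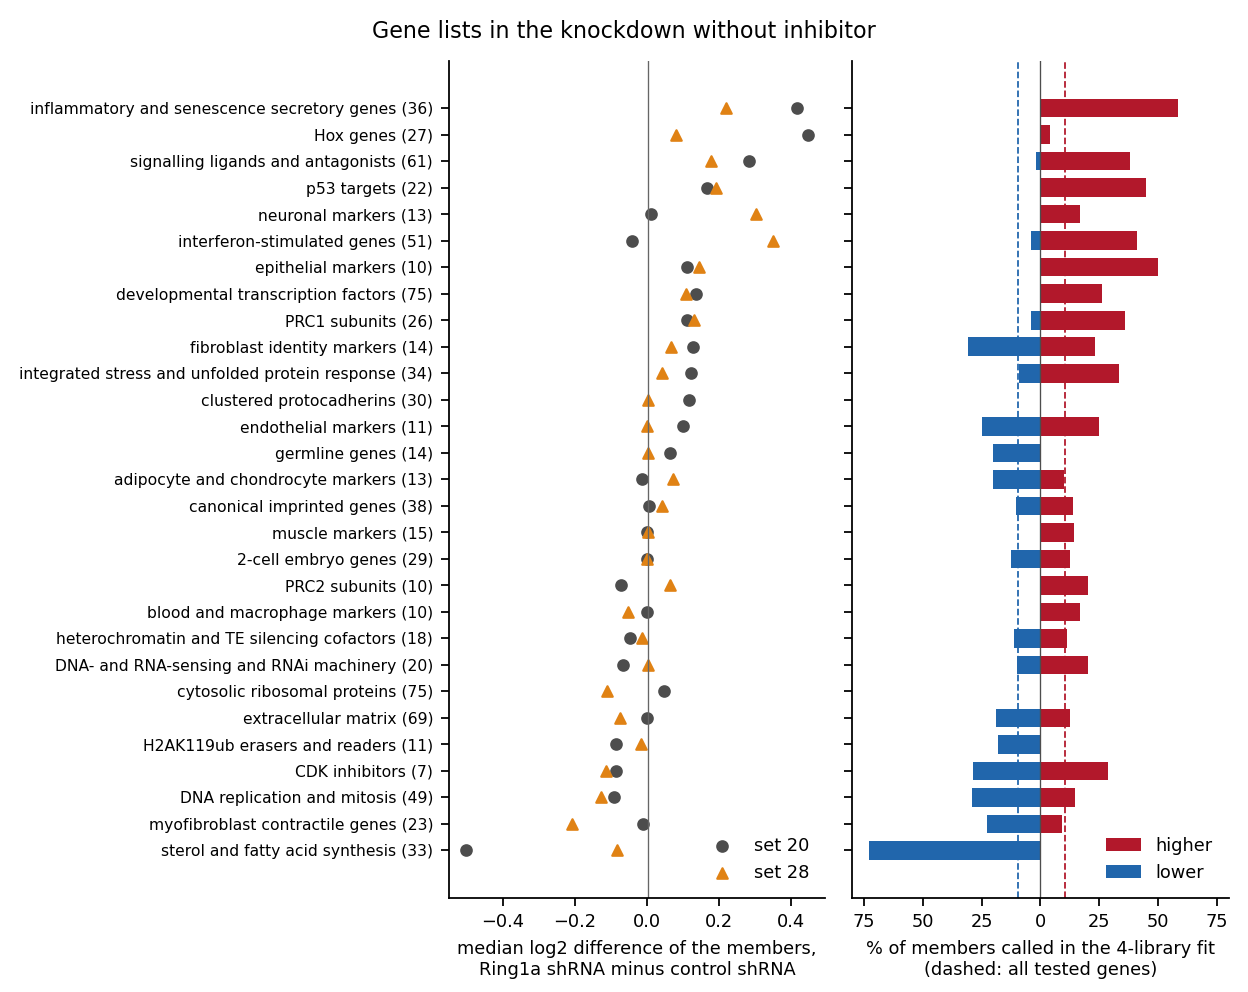
Left, median log2 difference, Ring1a shRNA minus control shRNA, of the tested members of each gene list (number tested in brackets) in set 20 (circles) and set 28 (triangles). Right, percent of members called higher (red) or lower (blue) by the edgeR fit on 4 libraries, with dashed lines at 10.3% and 9.38% for all genes. Inflammatory genes reach 58.62% higher and sterol synthesis genes 72.73% lower, with medians of -0.50 and -0.08 for the sterol genes.

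Many genes of sterol and fatty acid synthesis were lower, mostly in set 20. The edgeR fit on 4 libraries called 24 of 33 lower (72.73%, against 9.38% of all genes) and 0 higher, but 0 passed 1.5-fold in both sets. The median log2 difference was -0.50 in set 20 and -0.08 in set 28. Hmgcs1, an enzyme gene early in the mevalonate pathway, had 225.5 and 191.8 CPM with the Ring1a shRNA and 353.2 and 237.9 CPM with the control. DESeq2 on 4 libraries called 7 members lower, with Hmgcs1 at an adjusted p = 0.000735, and on 8 libraries it called 0. Of all genes, DESeq2 on 4 libraries called 1.58% lower.

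Of 63 matrix genes in the edgeR fit on 4 libraries, 8 were called higher (12.7%, near the 10.3% of all genes) and 12 lower (19.05%, against 9.38%). Thbs1, encoding the matrix glycoprotein thrombospondin 1, had 1183 and 1120 CPM with the Ring1a shRNA and 1760 and 1672 CPM with the control, lower by 0.57 and 0.58 on the log2 scale and without overlap. Col6a3, a collagen VI chain gene, had 477.6 and 179.2 CPM with the Ring1a shRNA and 649.0 and 323.1 CPM with the control. Bgn, encoding the proteoglycan biglycan, had 954.7 and 773.9 CPM with the Ring1a shRNA and 1299 and 1129 CPM with the control. DESeq2 on 4 libraries called all 3 lower. Cytosolic ribosomal protein genes, 75 in all, gave 0 calls in either direction by either edgeR fit.

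The genes that were lowest with the Ring1a shRNA, apart from Ring1, were mostly well expressed and of unrelated function. Dnajc13, encoding the endosomal co-chaperone RME-8, at chr9:104151597-104263608, had 131.9 and 134.2 CPM with the Ring1a shRNA and 288.1 and 297.8 CPM with the control. The replicates of each shRNA lay close together and far from the other shRNA. The log2 differences were -1.13 and -1.15, and the fit gave -1.14 ± 0.20 with an adjusted p = 0.705 by edgeR's quasi-likelihood test and 0.000368 by DESeq2. Xpo6, which exports actin from the nucleus, had 35.0 and 32.2 CPM with the Ring1a shRNA and 69.0 and 89.4 CPM with the control (-1.23 ± 0.17, DESeq2 adjusted p = 2.8e-05).

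Fam63b (Mindy2 in RefSeq), a deubiquitinase gene, had 18.5 and 18.8 CPM with the Ring1a shRNA and 42.9 and 49.9 CPM with the control (-1.30 ± 0.23). Mbnl3, of the muscleblind family of RNA-binding splicing regulators, had 53.3 and 43.6 CPM with the Ring1a shRNA and 106.5 and 96.1 CPM with the control. Bckdk, the kinase that inactivates branched-chain keto acid dehydrogenase, had 22.8 and 16.5 CPM with the Ring1a shRNA and 45.2 and 46.3 CPM with the control. Both knockdown libraries lay below both controls for Fam63b, Mbnl3 and Bckdk, which were ranked by these same libraries. Itgb1bp1 and Exo5 followed, at fitted log2 fold changes of -1.10 ± 0.19 and -1.06 ± 0.19. Sprr2h, Cd93, Itih2 and Fosb completed the 12 at low levels, and Sprr2h belongs to a family of near-identical neighbours that can share reads.

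DESeq2 on 8 libraries called 7 more genes lower, named here after their values were seen: Map2k4, Tinagl1, Mon2, Ehd2, Ube2e2, Ppp2ca and Pdcl. Ppp2ca, the catalytic subunit gene of protein phosphatase 2A, had 166.2 and 160.8 CPM with the Ring1a shRNA and 290.6 and 340.2 CPM with the control. Mon2, a gene of endosome-to-Golgi transport, had 66.4 and 56.3 CPM with the Ring1a shRNA and 120.7 and 103.4 CPM with the control. Neither had overlapping groups.

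**Figure D4:**
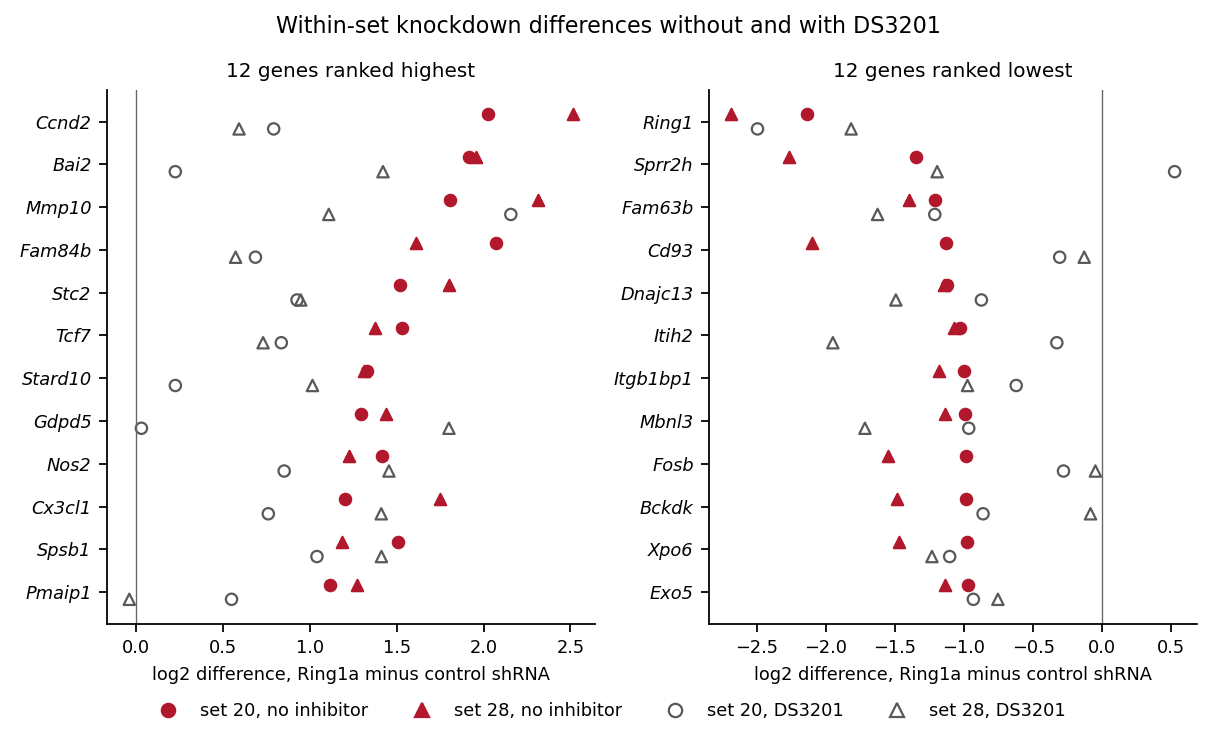
Within-set log2 difference, Ring1a shRNA minus control shRNA, for the 12 genes ranked highest (left) and the 12 ranked lowest (right) without inhibitor. Filled red symbols are the libraries without inhibitor that set the ranking and open grey symbols those with DS3201 (circles set 20, triangles set 28), which were not used in it. Tcf7 and Stc2 are higher and Fam63b, Dnajc13 and Xpo6 lower at all 4 symbols, whereas Pmaip1 lies at -0.04 in set 28 with DS3201.

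The libraries grown with DS3201 are separate libraries with the same pair of shRNAs, and the ranking did not use them. Whether their cells were infected separately from those without inhibitor is not stated, so they are not taken as an independent knockdown. Ring1 was lower there too, by log2 differences of -2.50 and -1.82. Of the 334 genes higher without inhibitor, 241 (72.16%) had the same direction in both sets with DS3201 and 77 (23.05%) passed 1.5-fold there, while 27.12% of all genes tested were higher in both sets with DS3201. Of the 88 lower genes, 70 (79.55%) had the same direction and 29 (32.95%) passed 1.5-fold, against 26.35% of all genes lower in both sets. Across genes of 5 CPM or more, the differences without and with DS3201 correlated with r = 0.43, a description across genes only. The control library with DS3201 in set 28 stood apart, with 14.6% of its counts in repeats against 10.4% to 13% in the other libraries with DS3201, and its part in these values was not tested.

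The 12 genes ranked lowest differed among themselves with the inhibitor. Fam63b had log2 differences of -1.21 and -1.63 with DS3201, Xpo6 -1.11 and -1.23, Dnajc13 -0.87 and -1.49, while Bckdk had -0.86 and -0.08, Fosb -0.28 and -0.05, Cd93 -0.31 and -0.13, and Sprr2h 0.52 and -1.20. Ppp2ca, outside the 12, had -0.87 and -1.15. For some genes that were higher, the level with DS3201 was high with the control shRNA too. Ccnd2 stood at 81.4 and 226.9 CPM with the Ring1a shRNA and DS3201 and at 47.0 and 150.5 CPM with the control shRNA and DS3201, a log2 difference of 0.79 and 0.59. Ogfrl1 had 236 and 278 counts with the Ring1a shRNA and DS3201 and 192 and 217 with the control shRNA and DS3201. Tcf7 had log2 differences of 0.84 and 0.73 with DS3201. Whether the knockdown differed with and without DS3201 was tested as an interaction. For it edgeR's quasi-likelihood test called 0 entries after Benjamini-Hochberg adjustment, and DESeq2 called 0. In edgeR's test, 132 of 14393 genes (0.9171%) and 12 of 894 repeat subfamilies (1.342%) had an unadjusted p under 0.05. Ccnd2 and Pmaip1 were among those 132, each with an adjusted p = 0.99 in edgeR's quasi-likelihood test of the interaction. Without the control library with DS3201 of set 20, the interaction test called 2036 entries. That fit leaves the group with its set 28 library alone, the one that stood apart, and assumes that it varies like the other groups.

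The p53 targets and interferon-stimulated genes had medians below 0 with DS3201. Their median log2 differences there were -0.05 and -0.02 for p53 targets and -0.74 and -0.24 for interferon-stimulated genes, in set 20 and set 28. For sterol synthesis genes they were -0.30 and 0.19, so the sign differed between the sets. For inflammatory genes they were 0.20 and 0.20, and for signalling ligands 0.23 and 0.54. The differences between these medians were not tested.

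Repeat subfamilies, most of them retroviral or LINE sequences that H3K9 methylation and Polycomb marks are known to silence, differed little. Repeats took 8.59% and 9.92% of counts with the Ring1a shRNA and 8.65% and 9.72% with the control. At least 1.5-fold in both sets, 13 of 894 subfamilies were higher (1.45%) and 2 lower (0.224%), and 2 of the 13 (15.38%) were also higher in both sets with DS3201, against 8.277% of all repeat subfamilies. The edgeR fit on 4 libraries called 40 of 852 higher (4.69%) and 17 lower (2.0%). DESeq2 called 1 of 564 higher (0.177%) and 0 lower (0.0%) on 8 libraries, and 5 of 722 higher (0.693%) and 0 lower on 4 libraries.

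MURVY-int, an internal region of an ERV1 retrovirus, was the repeat DESeq2 called on 8 libraries. It had 36.9 and 72.6 CPM with the Ring1a shRNA and 19.7 and 37.2 CPM with the control, and was higher within each set by 0.90 and 0.96 on the log2 scale while the groups overlapped by level. The fitted log2 fold change was 0.94 ± 0.16, with an adjusted p = 0.705 by edgeR's quasi-likelihood test and 0.00173 by DESeq2. It was also higher with DS3201, by 0.63 and 0.51. Of the 90 ERV1 subfamilies in the edgeR fit on 4 libraries, 11 were called higher and 2 lower, against 4.69% and 2.0% of all repeat subfamilies. The summed level of the 98 ERV1 subfamilies in the 8-library table was 12430 and 16180 CPM with the Ring1a shRNA against 9795 and 15600 CPM with the control. RLTR6-int, a gammaretroviral internal region, had 427.3 and 371.2 CPM with the Ring1a shRNA and 271.8 and 315.4 CPM with the control.

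ETnERV-int, an ERVK element, had 116.8 and 196.9 CPM with the Ring1a shRNA and 83.4 and 118.5 CPM with the control (0.60 ± 0.19, DESeq2 on 4 libraries, adjusted p = 5.53e-05). L1MEd, an old LINE subfamily, had 33.5 and 36.5 CPM with the Ring1a shRNA and 24.0 and 14.1 CPM with the control. IAPEz-int, the internal region of intracisternal A-particles, took 3.18% and 3.73% of counts with the Ring1a shRNA and 3.52% and 3.84% with the control, a fitted log2 fold change of -0.13 ± 0.19. MERVL-int, the retrovirus of 2-cell embryos, had 169.5 and 256.0 CPM with the Ring1a shRNA and 201.3 and 264.5 CPM with the control, and the young LINE L1Md_T had 1166 and 2344 CPM with the Ring1a shRNA against 1459 and 2583 CPM with the control. None of these 3 passed the adjusted threshold in edgeR over 8 libraries or in DESeq2, and L1Md_T was called lower by the edgeR fit on 4 libraries.

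**Figure D5:**
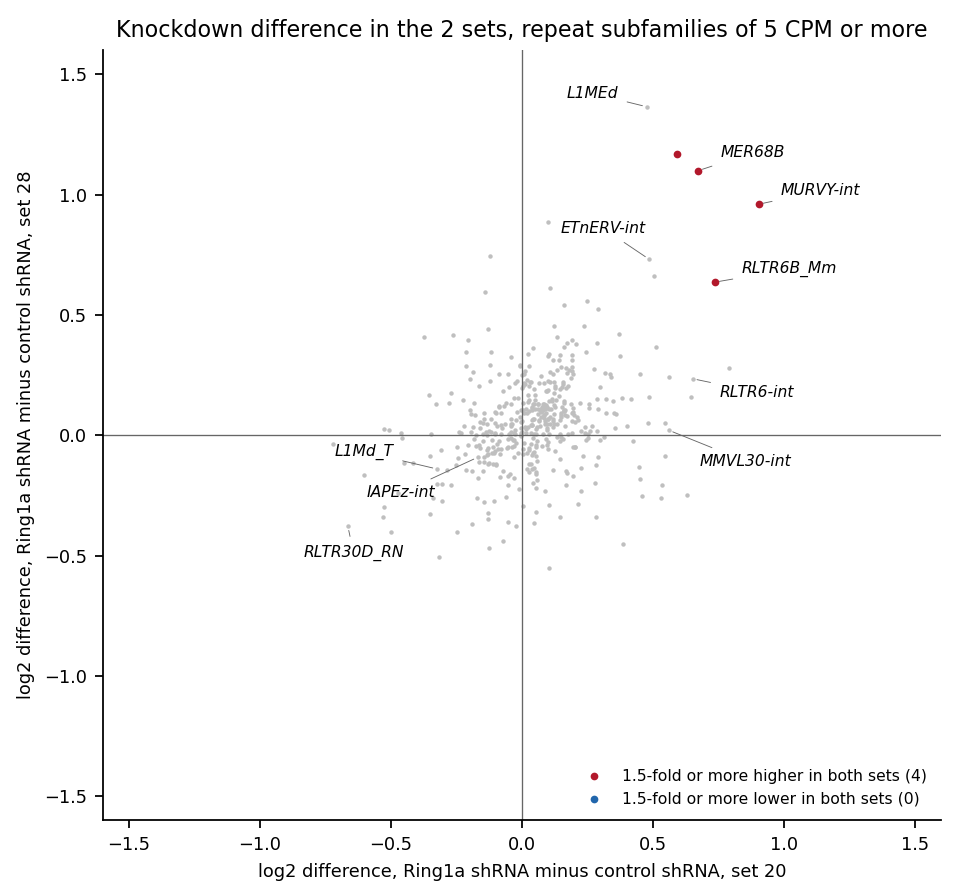
Log2 difference, Ring1a shRNA minus control shRNA, in set 20 (x axis) and set 28 (y axis) for the 475 repeat subfamilies with at least 5 CPM in the higher group. Red points are the 4 subfamilies at least 1.5-fold higher in both sets, and 0 were 1.5-fold lower in both; most subfamilies lie near 0 on both axes, and IAPEz-int and L1Md_T lie just below it.

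Markers of other cell types were read beside these results. The summed level of the 24 neuronal markers was, in CPM without TMM scaling, 225 and 250 with the Ring1a shRNA and 209 and 207 with the control, and that of the 19 epithelial markers was 236 and 128 with the Ring1a shRNA and 213 and 118 with the control. Their part in the results was not tested. Tubb3, a beta-tubulin gene, had 29.4 and 23.1 CPM with the Ring1a shRNA and 14.8 and 13.7 CPM with the control, and Dsp, the desmosome gene desmoplakin, had 29.7 and 30.7 CPM with the Ring1a shRNA against 17.9 and 16.8 CPM with the control. The defining epithelial gene Epcam and the neuronal genes Snap25 and Stmn2 were at 0 in all 4 libraries. In bulk RNA, fewer cells of a type and less RNA per cell cannot be told apart.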

How the data were processed

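Poly(A) RNA was sequenced from 8 libraries in 4 groups of 2, taken from the labels. The table the authors deposited holds raw counts for each gene symbol and repeat subfamily, without normalization. Per the submitters' processing notes, Trim Galore trimmed the reads and TopHat2 aligned them to mm10, with no versions named. How reads were counted, by strand and at repeated loci, is not given in the sources used here, so overlapping genes and near-identical copies are uncertain. A further 8 columns fit none of the labelled samples and were left out.

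The column prefix (20 or 28) served as the block. For every pair of groups, the gene-wise gaps between set 20 and set 28 correlated (Pearson's r 0.559 to 0.897). The prefix therefore pairs the libraries, although the labels tie it to no replicate number or batch. Of 25215 entries (24062 genes, 1153 repeat subfamilies), filterByExpr kept 15287. The main test was edgeR 4.0.16 (R 4.3.3): TMM scaling, 1 term per group and 1 for the set over all 8 libraries (residual degrees of freedom 3), the robust quasi-likelihood F test, two-sided, with Benjamini-Hochberg adjustment at 0.05. Within-set log2 differences used a prior count of 2. Standard errors are the log2 fold change divided by the square root of F.

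Alternatives were no replicate block, the 4 libraries alone with and without the block, DESeq2 1.42.0 on 8 and on 4 libraries, another scaling, other filters, genes alone, a non-robust fit, a term for DS3201 in set 28, and each library left out. DESeq2 on 4 libraries and the DS3201 term were added after seeing the data. The scripts were tested on simulated data. Totals ran from 12738585 to 23688253 counts, and 3 counts, the limit that a count of 0 allows, equal 0.127 to 0.236 CPM, for counting error only.

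The members and gene lists were chosen with earlier results of these data known. Genes were named if called. Since none was, the 12 in each direction with the largest value of the smaller within-set difference were taken, given 5 CPM or more in the higher group. Members of each list and the perturbed genes were added. Gene positions come from RefSeq on GRCm38.p6.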

Additional observations from a re-analysis of the deposited data

How the results depend on the processing

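The test over 8 libraries with the replicate block called 0 genes and 0 repeat subfamilies in either direction. It also called 0 without the replicate block, on the 4 libraries without the block, under relative log expression scaling, with no filter or a filter at 1 CPM, on genes alone, with a non-robust fit, with a term for DS3201 in set 28 and with each library left out. The counts moved in 3 alternatives. The edgeR fit on 4 libraries with the replicate block called 1347 genes higher and 1224 lower, and 40 repeat subfamilies higher and 17 lower. DESeq2 with the replicate block called 16 genes higher, 15 lower and 1 repeat subfamily higher on 8 libraries, and 124, 187 and 5 on the 4 libraries. The cause was not tested.

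Ring1 was lower in every alternative. Its log2 fold change was -2.32 without the replicate block and -2.75 to -2.19 with 1 library left out, and it passed the threshold in the edgeR fit on 4 libraries (-2.33) and in DESeq2 on 8 libraries (-2.42) and on 4 (-2.43). The interaction count ran from 0 to 2036 with 1 library left out, and 2036 came without the set 20 control library with DS3201, where the lone set 28 library is assumed to vary like the other groups. For single named genes and repeats no direction reversed in the alternatives run, and 55 values newly passed the threshold, 23 of them in the edgeR fit on 4 libraries, 12 in DESeq2 on 8 libraries and 20 in DESeq2 on 4. With 2 libraries a group, the spread of a single gene is poorly known, and small differences of genes with few counts were not detectable at these depths.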
